A study of Mus musculus with 25 samples.

Results

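The esophagus of mouse pups that carry an activating NRF2 mutation was compared with that of pups that lack KEAP1, the protein that holds NRF2 in check. The comparison rests on the 3 libraries labelled NRF2L30F/L30F::K5Cre (L30F homozygotes) and the 3 labelled KEAP1fl/fl::K5Cre (KEAP1-deficient pups), which are 6 of the 25 bulk RNA-seq libraries of the series and were taken by their labels. Pups were 7 to 10 days old. L30F homozygotes make NRF2 with phenylalanine in place of leucine at codon 30 from both alleles once Cre recombinase has acted, and KEAP1-deficient pups have both Keap1 alleles floxed. In both, Cre was driven by the K5 promoter, which is active in keratin 5-expressing squamous cells, so by design the other cells of the tissue keep unaltered alleles. In which cells Cre acted was not tested. 3 libraries of the same experiment labelled wild type, with no floxed or mutant allele named, give the level for comparison. Their titles carry the K5Cre tag that all pup titles share, and whether these animals carried Cre is not stated. The labels do not say whether each library is 1 animal, and the spread behind each p-value may therefore be partly technical.

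NRF2 (gene Nfe2l2) is a transcription factor that switches on genes for glutathione, thioredoxin, NADPH and detoxifying enzymes through antioxidant response elements. KEAP1 binds NRF2 at the DLGex and ETGE motifs and directs its ubiquitination and breakdown by a CUL3 ligase. A DLGex mutation leaves KEAP1 in place for its other partners and weakens its hold on NRF2, whereas KEAP1 loss removes the adaptor altogether. In mice, constant NRF2 activity is known to thicken the cornified layers of the esophagus.

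Values are normalised reads, the authors' reads per gene divided by a library factor, and levels are compared within a gene only. A gene is called where limma, fitted on log2(normalised reads + 1) of all 9 pup libraries with p-values adjusted by Benjamini-Hochberg over 21007 genes, gave an adjusted p under 0.05. Log2 differences are L30F homozygotes minus KEAP1-deficient pups, with the standard error (SE). The 9 libraries held 18.8 to 19.7 M (mega) reads each. Squamous markers were well detected in both mutants. Krt5, Krt14, Trp63 and Krt13 were above every wild-type library in both, whereas Krt4 was below. Krt4 was at 19584, 10711 and 11327 in L30F homozygotes and 18247, 19989 and 20060 in KEAP1-deficient pups, against 61419, 57869 and 54846 in wild type. Krt5, of the basal layer, was at 35495, 34924 and 30738 in L30F homozygotes and 43189, 43372 and 33506 in KEAP1-deficient pups. Krt13, of the suprabasal layer, was at 165167, 145369 and 138263 in L30F homozygotes and 218955, 209889.8 and 195183 in KEAP1-deficient pups.

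Some libraries stood apart. The 11 thyroid and airway markers summed to 32918 normalised reads in homozygote library 1, against 32.0 to 60.9 in the other 5 mutant libraries, and the 8 glandular stomach markers tested summed to 6857 in KEAP1-deficient library 2, against 10.8 to 189.3 in the other 5. Homozygote library 2 had 75717 normalised reads of smooth muscle markers, against 32922 to 40614 in the other 5. Wild type had 74310 to 75443, so this library was near the wild-type level and the other 5 were below it. Homozygote library 3 was listed at 0 for the Y-linked Ddx3y, against 949.4 to 1281 in the other 5, and at 47281 for Xist, the RNA of the silenced X, against 20.7 to 36.9. The labels give no sex.

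Differences between the mutants were mostly small. Lower in L30F homozygotes were some NRF2 targets, squamous differentiation genes and IL-1 family genes, and higher were some matrix, imprinted and muscle genes and a small set that includes Mboat2 and Ednrb. Of 21007 genes, 875 were called (4.17%), 370 higher in L30F homozygotes (1.76%) and 505 lower (2.4%). Over all tested genes the median log2 difference was -0.02, and 52.2% of genes lay below 0. The median size of a difference was 0.23 over all tested genes and 0.54 over the called ones, and was larger among called genes that were higher (0.76) than among those that were lower (0.44). At least 2-fold differences were found for 118 genes called higher and 30 called lower. All 875 called genes had groups that did not overlap, but so had 10.5% of all tested genes in the higher and 16.7% in the lower direction.

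The number of calls depended on single libraries. Leaving out homozygote library 1, 2 or 3 in turn left 172, 63 and 924 calls, and leaving out KEAP1-deficient library 1, 2 or 3 left 177, 47 and 392. The wild-type libraries enter only through the shared spread, and the fits without wild-type library 1, 2 or 3 gave 900, 120 and 207. The 6 mutant libraries alone gave 185 calls of 20742 genes (0.892%), 49 higher (0.236%) and 136 lower (0.656%), of which 140 were among the 875. With trimmed-mean (TMM) scaling 407 genes were called higher and 371 lower, 52.3% higher against 42.3% with the authors' scaling, and limma-voom gave 309 and 610, 33.6% higher. The 33 genes that kept their call in each of the 9 fits without 1 library, 16 higher and 17 lower, are all named in what follows, and where another gene's call ended in such fits that is stated in its paragraph. These 33 were picked out after their values were seen.

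**Figure D1:**
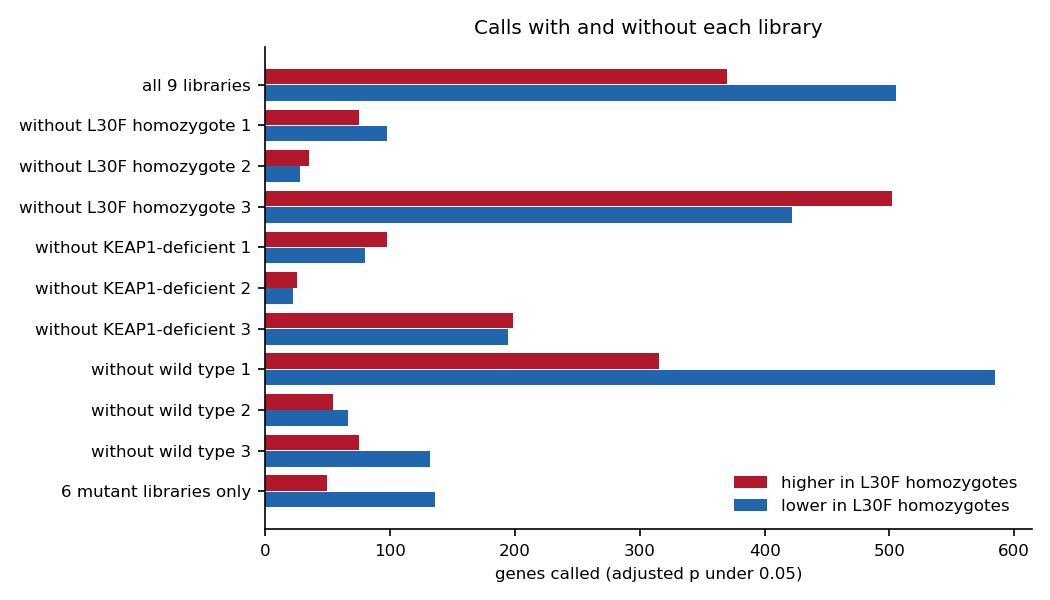
Genes called higher (red) or lower (blue) in L30F homozygotes than in KEAP1-deficient pups, on the horizontal axis, in the fit of all 9 libraries (top row), in the 9 fits that leave out 1 library each, and in the fit of the 6 mutant libraries (bottom row). The total is 875 with all 9 libraries and 47 without KEAP1-deficient library 2.

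**Figure D2:**
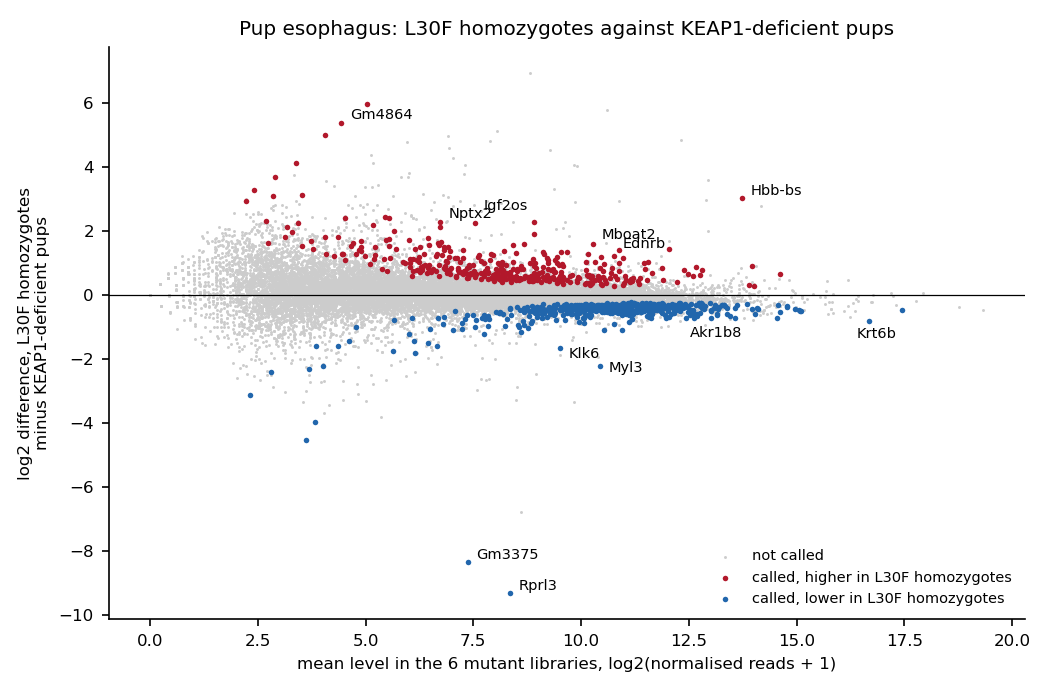
Log2 difference between L30F homozygotes and KEAP1-deficient pups (vertical axis) against the mean level in their 6 libraries (horizontal axis, log2 scale), 1 point per gene tested. Most of the 505 genes called lower (blue) lie close to 0 at high levels, whereas the 370 called higher (red) reach larger differences at lower levels.

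Keap1 was checked first, since it is the gene deleted in one mutant. It had 1104, 958 and 1424 normalised reads in the L30F homozygotes, 725, 825 and 789 in the KEAP1-deficient pups and 1094, 1060.2 and 1053 in wild type. The KEAP1-deficient libraries were the lowest of the 9 and did not overlap with either other group. The log2 difference was 0.56 (SE 0.13, limma adjusted p = 0.042). Its call was kept only without homozygote library 3 and ended without any of the other libraries (limma adjusted p = 0.053 to 0.1). Reads of cells without Cre and of exons outside the deleted part enter this value, and a point mutation cannot be checked from it. Nfe2l2 itself had 1601, 1291 and 2029.8 normalised reads in L30F homozygotes, against 2929, 2557 and 2053 in KEAP1-deficient pups and 1261, 1338 and 1305 in wild type. The groups did not overlap, yet the difference of -0.62 (SE 0.17) missed the threshold (limma adjusted p = 0.066), and was called only without homozygote library 3 (0.026).

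NRF2 target genes that were called lower in L30F homozygotes outnumbered those called higher, though both mutants were far above wild type for the best known ones. Slc7a11, the cystine transporter, had 66951, 79586 and 74019.7 normalised reads in L30F homozygotes, against 90752, 88245 and 87175 in KEAP1-deficient pups and 56.1, 57.8 and 59.0 in wild type. Nqo1, a quinone reductase, had 10500.4, 9777 and 9688 in L30F homozygotes, against 13212, 12026 and 11118 in KEAP1-deficient pups and 72.1, 80.9 and 77.0 in wild type. For both genes the mutant groups did not overlap, but their log2 differences of -0.27 (SE 0.07) and -0.28 (SE 0.08) were not called (limma adjusted p = 0.059 and 0.077).

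The clearest differences among NRF2 targets were in aldo-keto reductases, which reduce aldehydes and ketones with NADPH. Akr1b8 had 6386, 6536 and 5929 normalised reads in L30F homozygotes, against 9949, 11092 and 10069.7 in KEAP1-deficient pups and 102, 119 and 122 in wild type, a log2 difference of -0.72 (SE 0.08, limma adjusted p = 0.0088). Akr1b3, the aldose reductase, had 2428, 2370.5 and 2338 in L30F homozygotes, against 3807, 4320.1 and 3715 in KEAP1-deficient pups and 1270.4, 1232 and 1312 in wild type (log2 -0.73, SE 0.07, limma adjusted p = 0.0043). The 2 mutant groups were well apart for both genes, and both calls were kept without any 1 library. Akr1c18, a steroid reductase that inactivates progesterone, went the other way: it had 297, 872 and 1253 in L30F homozygotes, 187, 149 and 102 in KEAP1-deficient pups and 37.4, 60.5 and 54.8 in wild type. Its homozygote libraries spread widely around a log2 difference of 2.27 (SE 0.50, limma adjusted p = 0.048). Its call was kept only without homozygote library 1 and ended without any of the other libraries (limma adjusted p = 0.058 to 0.14). Of 13 members of the family tested, these 3 were called, 1 higher and 2 lower, and the median was -0.31. Over all genes 1.76% were called higher and 2.4% lower.

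4 genes of NADPH supply were lower in L30F homozygotes. Pgd, a dehydrogenase of the pentose phosphate pathway, had 9422, 8759.5 and 7792 normalised reads in L30F homozygotes, against 13255, 15279 and 12718 in KEAP1-deficient pups and 1208, 1201 and 1169.7 in wild type (log2 -0.67, SE 0.09, limma adjusted p = 0.013), and its call was kept in all 9 fits. G6pdx, the first enzyme of that pathway, Taldo1, its transaldolase, and H6pd, its counterpart in the endoplasmic reticulum, differed by -0.32, -0.34 and -0.42 on the log2 scale (limma adjusted p = 0.044, 0.046 and 0.041). Leaving out any 1 of the 9 libraries ended at least 1 of these 3 calls, which held in 0 to 3 of the 9 such fits (limma adjusted p = 0.052 to 0.13 where they ended). With TMM scaling Taldo1 and H6pd were not called (limma adjusted p = 0.051 for both). These 4 of 10 NADPH and pentose phosphate genes were called lower and none higher, against 2.4% of all genes, with a median of -0.33.

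Single members of the other detoxifying groups were also lower. Ptgr1, which reduces prostaglandins and leukotrienes, had 30251, 27457 and 28938 normalised reads in L30F homozygotes, against 44867, 40489 and 37665 in KEAP1-deficient pups and 418, 404 and 437 in wild type (log2 -0.50, SE 0.08, limma adjusted p = 0.02). Txnrd1, the thioredoxin reductase, had 7636, 7676 and 8484 in L30F homozygotes, against 10367, 11642 and 10227 in KEAP1-deficient pups and 1039, 1023 and 975 in wild type (log2 -0.44, SE 0.07, limma adjusted p = 0.026). The mutant groups did not overlap for either gene. Hmox1 (heme oxygenase), Slc48a1 (a heme transporter), Ftl1 (ferritin light chain), Gstp1 and Gstp2 (glutathione transferases), Cbr3 (a carbonyl reductase) and Slc3a2 (the partner chain of Slc7a11) differed by -0.40, -0.44, -0.45, -0.44, -0.52, -0.41 and -0.35 on the log2 scale, and all 7 were called (limma adjusted p = 0.027 to 0.048). Gstp1 and Gstp2 are near-identical copies whose reads may be split wrongly. In the fits without 1 library these 9 calls held 1 to 7 times of 9, at least 1 ending without any 1 of the 9 libraries (limma adjusted p = 0.051 to 0.14). With TMM scaling Hmox1, Cbr3 and Slc3a2 were not called (limma adjusted p = 0.055, 0.055 and 0.054). Aldh1a2, a retinaldehyde dehydrogenase that wild type expressed more than either mutant, was higher in L30F homozygotes with 314, 428 and 319, against 262, 193 and 191 in KEAP1-deficient pups and 622, 513 and 569.9 in wild type (log2 0.71, limma adjusted p = 0.042). Its call was kept only without homozygote library 3, KEAP1-deficient library 1 and wild-type library 1 and ended without any of the other libraries (limma adjusted p = 0.065 to 0.13).

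Over these lists, 2 of 16 glutathione and thioredoxin genes, 2 of 16 glutathione transferases, 3 of 18 quinone, carbonyl, aldehyde and epoxide enzymes and 3 of 10 heme and iron genes were called lower. None but Aldh1a2, counted among the 18, was called higher. Their medians lay between -0.28 and -0.21, and over all genes 2.4% were called lower and 1.76% higher. None of 8 ABC exporters (1 at an unadjusted p under 0.05, 0 by limma-voom) and none of 4 metallothioneins (2 at an unadjusted p under 0.05, 1 by limma-voom) was called by limma. The constitutive proteasome, whose genes NRF2 is known to raise, had 7 of 22 members called lower and none higher, with a median of -0.28. Psmd14, a deubiquitinase of its lid, and Psma5, a core subunit, differed by -0.44 and -0.39 (limma adjusted p = 0.031 for both). At least 1 of the 2 calls ended without any 1 library except homozygote library 3 or KEAP1-deficient library 3 or wild-type library 1 (limma adjusted p = 0.05 to 0.1), and each held in 3 of the 9 fits.

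Outside the lists, Blmh and Sqor were among the 33 genes called in every fit. Blmh, the bleomycin hydrolase that takes apart filaggrin fragments, had 4169, 4444 and 3773 normalised reads in L30F homozygotes, against 6683, 7180.1 and 6719 in KEAP1-deficient pups and 1083, 951 and 951 in wild type (log2 -0.73, SE 0.08, limma adjusted p = 0.0078). Sqor, which oxidises hydrogen sulfide, had 3792, 3758 and 3573 in L30F homozygotes, against 5358, 5638 and 5319 in KEAP1-deficient pups and 297, 287 and 320.0 in wild type (log2 -0.55, SE 0.07, limma adjusted p = 0.0088). The spread within each mutant group was small beside the gap between them.

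Windows around an annotated start site are shown for 3 genes that were lower in L30F homozygotes. Each is shown because it holds letters that match the core of the antioxidant response element, the site NRF2 binds. The windows of Nqo1, Slc7a11, Akr1b8, Ptgr1 and Gstp1 held no match. The core searched was TGACNNNGC on both strands, with no other motif searched, and it is in capitals. Sequences are from RefSeq on GRCm38.p6, 250 bases before to 50 after a start site, on the strand of the gene. Pgd (chromosome 4, minus strand, chr4:149166033-149166332), Txnrd1 (chromosome 10, plus strand, chr10:82858956-82859255) and Blmh (chromosome 11, plus strand, chr11:76945406-76945705) each have 1 match, which begins 3 bases after the start site in Pgd, 92 before it in Txnrd1 and 24 after it in Blmh.
Pgd: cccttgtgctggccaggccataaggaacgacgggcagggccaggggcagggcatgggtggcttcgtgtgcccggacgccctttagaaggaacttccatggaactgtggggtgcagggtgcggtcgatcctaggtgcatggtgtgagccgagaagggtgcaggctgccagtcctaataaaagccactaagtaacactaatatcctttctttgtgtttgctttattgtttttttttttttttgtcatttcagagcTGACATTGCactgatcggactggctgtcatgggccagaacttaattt
Txnrd1: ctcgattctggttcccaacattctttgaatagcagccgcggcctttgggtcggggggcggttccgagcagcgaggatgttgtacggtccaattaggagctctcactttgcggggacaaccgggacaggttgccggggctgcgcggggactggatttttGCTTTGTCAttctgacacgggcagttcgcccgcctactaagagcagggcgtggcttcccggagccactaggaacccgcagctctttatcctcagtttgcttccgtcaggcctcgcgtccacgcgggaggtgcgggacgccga
Blmh: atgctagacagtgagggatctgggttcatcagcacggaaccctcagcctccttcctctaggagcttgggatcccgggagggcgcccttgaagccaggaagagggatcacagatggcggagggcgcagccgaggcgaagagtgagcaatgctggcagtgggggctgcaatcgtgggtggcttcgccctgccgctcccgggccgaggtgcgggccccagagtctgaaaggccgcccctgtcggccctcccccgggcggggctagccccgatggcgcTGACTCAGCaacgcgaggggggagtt
For Pgd and Txnrd1 the table holds 2 and 3 start sites, of which 1 each has a match in its window. The window with the match is the one printed. Whether its start site is used in this tissue was not tested, and the Pgd and Blmh matches lie inside the transcribed part. The core occurs in 12.4% of the table's 32851 promoters, so a match describes the letters and is no evidence of binding. Among genes matched to the table by symbol, the core was in 20.3% of 241 called higher and 20.6% of 394 called lower, against 16.3% of 13548 tested. This comparison is void, since fewer than 80% of the 370, 505 and 21007 genes in those sets could be matched, and nothing is read from it.

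Several genes of the suprabasal and cornifying layers were lower in L30F homozygotes, and those named here were above wild type in both mutants. Krt6b, a stress keratin, had 72276, 82045 and 76074 normalised reads in L30F homozygotes, against 130560.2, 144255 and 128843 in KEAP1-deficient pups and 894, 745 and 716 in wild type, a log2 difference of -0.81 (SE 0.09, limma adjusted p = 0.0088). Its call was kept in all 9 fits. Krt16, a type I stress keratin, had 16889.7, 16513 and 20938 in L30F homozygotes, against 30407, 33636 and 26247 in KEAP1-deficient pups and 164, 157 and 159 in wild type (log2 -0.73, SE 0.11, limma adjusted p = 0.018). Krt13, the main keratin of the suprabasal esophagus, differed by -0.48 (limma adjusted p = 0.027). Fits without 1 library kept these 2 calls 4 to 7 times of 9, and at least 1 ended without any 1 library except homozygote library 1 or homozygote library 3 or KEAP1-deficient library 3 or wild-type library 1 (limma adjusted p = 0.05 to 0.09). The 4 stress keratins tested had 2 called lower, against 2.4% of all genes, and a median of -0.62.

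Sbsn and Tgm1 showed the same with little spread. Sbsn, the secreted protein suprabasin, had 8616, 8934 and 9726 normalised reads in L30F homozygotes, against 14089, 16945 and 14253 in KEAP1-deficient pups and 1187, 1202 and 1334 in wild type (log2 -0.73, SE 0.09, limma adjusted p = 0.0088). Tgm1, the transglutaminase that cross-links the cornified envelope, had 8679, 8644 and 8347 in L30F homozygotes, against 12772, 13705 and 12515 in KEAP1-deficient pups and 1671, 1504 and 1385 in wild type (log2 -0.60, SE 0.08, limma adjusted p = 0.01). Neither call ended without any 1 library. Ly6d and Lypd3, membrane-anchored surface proteins, and Tgm3, another transglutaminase, differed by -0.46, -0.64 and -0.46 (limma adjusted p = 0.024, 0.034 and 0.026). These 3 calls held in 3 to 7 of the 9 fits without 1 library, and leaving out any 1 library except wild-type library 1 or wild-type library 3 ended at least 1 of them (limma adjusted p = 0.055 to 0.095). Of 19 suprabasal genes 5 were called lower and of 17 envelope and transglutaminase genes 2, against 2.4% of all genes. None of either was called higher, and the medians were -0.47 and -0.52.

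4 proteases of the cornified layer were lower as well. Klk10, a kallikrein serine protease, had 2462, 2156 and 2339 normalised reads in L30F homozygotes, against 3706, 4264 and 3383 in KEAP1-deficient pups and 814, 791 and 831 in wild type (log2 -0.70, SE 0.09, limma adjusted p = 0.01), and was called in all 9 fits. Klk6, of the same family, had 282, 397 and 335 in L30F homozygotes, against 774, 1582 and 987 in KEAP1-deficient pups and 3.56, 5.34 and 5.13 in wild type (log2 -1.67, SE 0.26, limma adjusted p = 0.02). Both mutants were far above wild type for Klk6, and the KEAP1-deficient libraries spread more than the homozygotes. Klk8 and Klk11 differed by -0.87 and -0.48 (limma adjusted p = 0.04 and 0.039). Leaving out any 1 library except wild-type library 1 ended at least 1 of these 3 calls, which held in 1 to 6 of the 9 such fits (limma adjusted p = 0.052 to 0.12 where they ended). All 13 kallikrein and SPINK inhibitor genes tested had values below 0, with a median of -0.63, and 4 of them were called, against 2.4% of all genes called lower.

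Enzymes of barrier lipid synthesis were among the lower genes. Sult2b1, which makes cholesterol sulfate and was not in the rule for naming genes, had 2177, 2372 and 2413 normalised reads in L30F homozygotes, against 3468, 3963 and 3483 in KEAP1-deficient pups and 198, 174 and 196 in wild type (log2 -0.65, SE 0.08, limma adjusted p = 0.01), in all 9 fits. Elovl1 (fatty acid elongation), Pla2g4e (a phospholipase), Ugcg (glucosylceramide synthesis) and Cers3 (ceramide synthesis) differed by -0.59, -0.73, -0.51 and -0.54 (limma adjusted p = 0.02, 0.03, 0.031 and 0.032). In the fits without 1 library these 4 calls held 2 to 7 times of 9, at least 1 ending without any 1 library except homozygote library 3 or wild-type library 1 (limma adjusted p = 0.05 to 0.089). All 21 barrier lipid genes had values below 0, with a median of -0.47, and 5 of them were called, against 2.4% of all genes called lower. Transcription factors of squamous differentiation had 5 of 19 called lower and none higher, with a median of -0.36: Grhl1, Hopx, Tfap2a and Zfp750 among them differed by -0.38, -0.58, -0.47 and -0.48 (limma adjusted p = 0.026, 0.029, 0.04 and 0.043). At least 1 of the 4 calls ended without any 1 library except wild-type library 1 (limma adjusted p = 0.05 to 0.13), and each held in 1 to 6 of the 9 fits.

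No basal layer or cell cycle gene passed the test. None of 16 basal layer genes (3 at an unadjusted p under 0.05, 0 by limma-voom) and none of 27 cell cycle genes (8 at an unadjusted p under 0.05, 0 by limma-voom) was called by limma, with medians of -0.11 and -0.19. All 27 cell cycle genes lay below 0, the lowest at -0.51, as did 10 of the 16 basal layer genes, against 52.2% of all tested genes. Groups did not overlap for 4 of the 27 cell cycle genes, which is no more than the 16.7% of all tested genes in that direction. The suprabasal list summed to 275649 to 314464 normalised reads in L30F homozygotes and to 393584 to 435714 in KEAP1-deficient pups, whereas the basal list summed to 106601 to 119750 in L30F homozygotes and 115011 to 133899 in KEAP1-deficient pups. The suprabasal sums did not overlap and the basal sums did. In bulk tissue fewer cells of a layer and less RNA per cell cannot be told apart. Of the 21 LCE genes, which encode late cornified envelope proteins, none was called by limma (1 at an unadjusted p under 0.05, 5 by limma-voom). All 21 lay below 0 (median -0.53), and 19 had groups that did not overlap, against the same 16.7% of all tested genes.

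**Figure D3:**
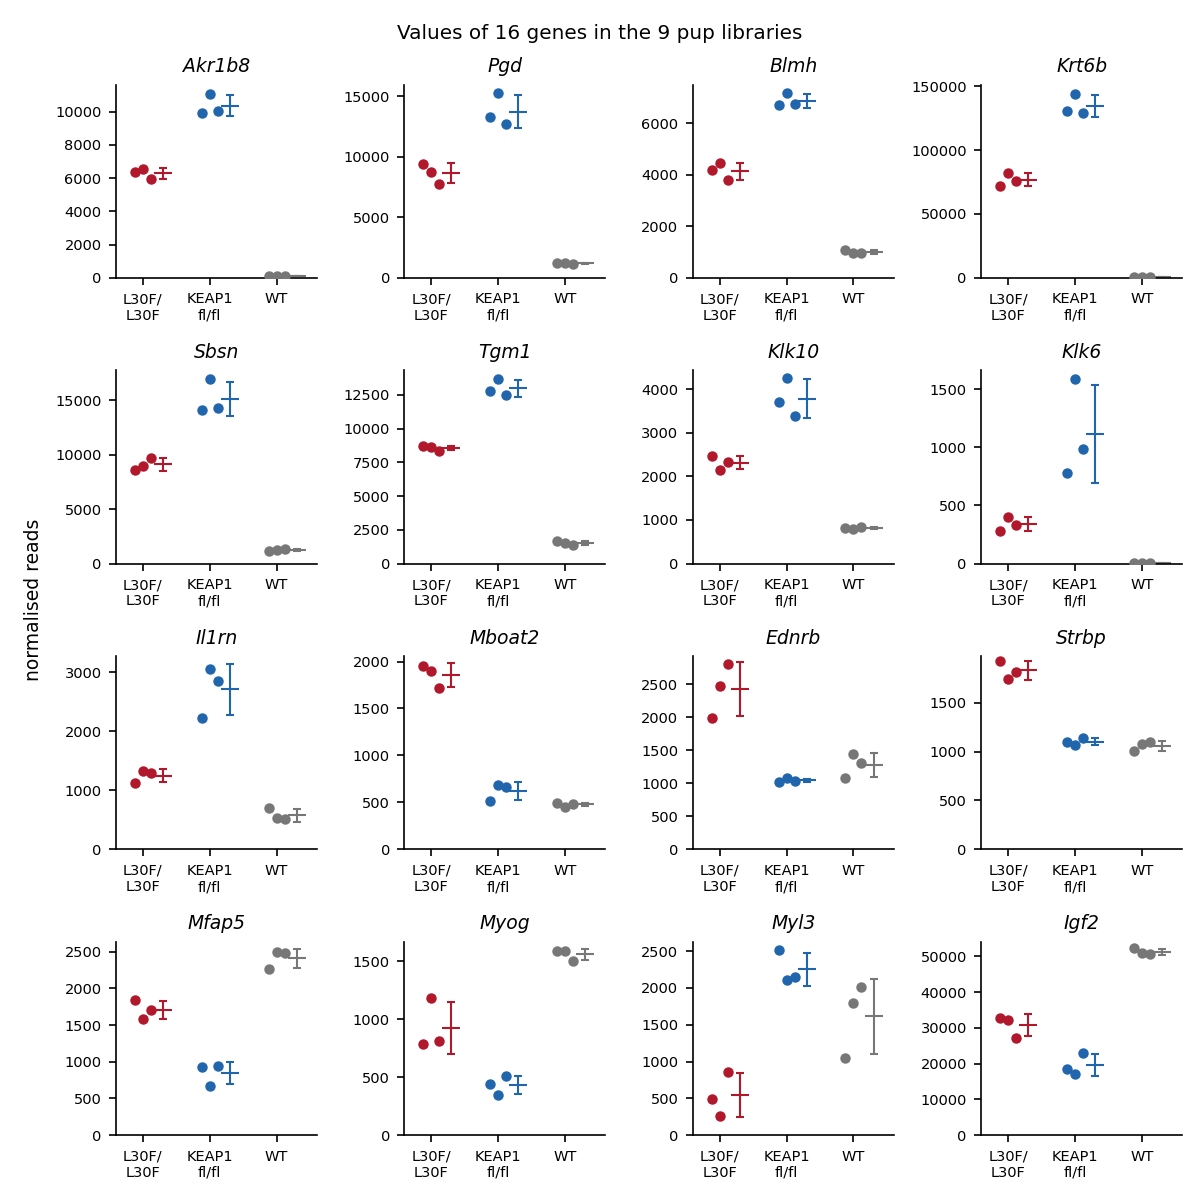
Normalised reads (vertical axes, from 0) of 16 genes in each pup library, with L30F homozygotes in red, KEAP1-deficient pups in blue and wild type in gray, and the mean and SD of 3 libraries beside the points. Akr1b8 to Il1rn and Myl3 are lower in L30F homozygotes than in KEAP1-deficient pups, and Mboat2 to Myog and Igf2 are higher.

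**Figure D4:**
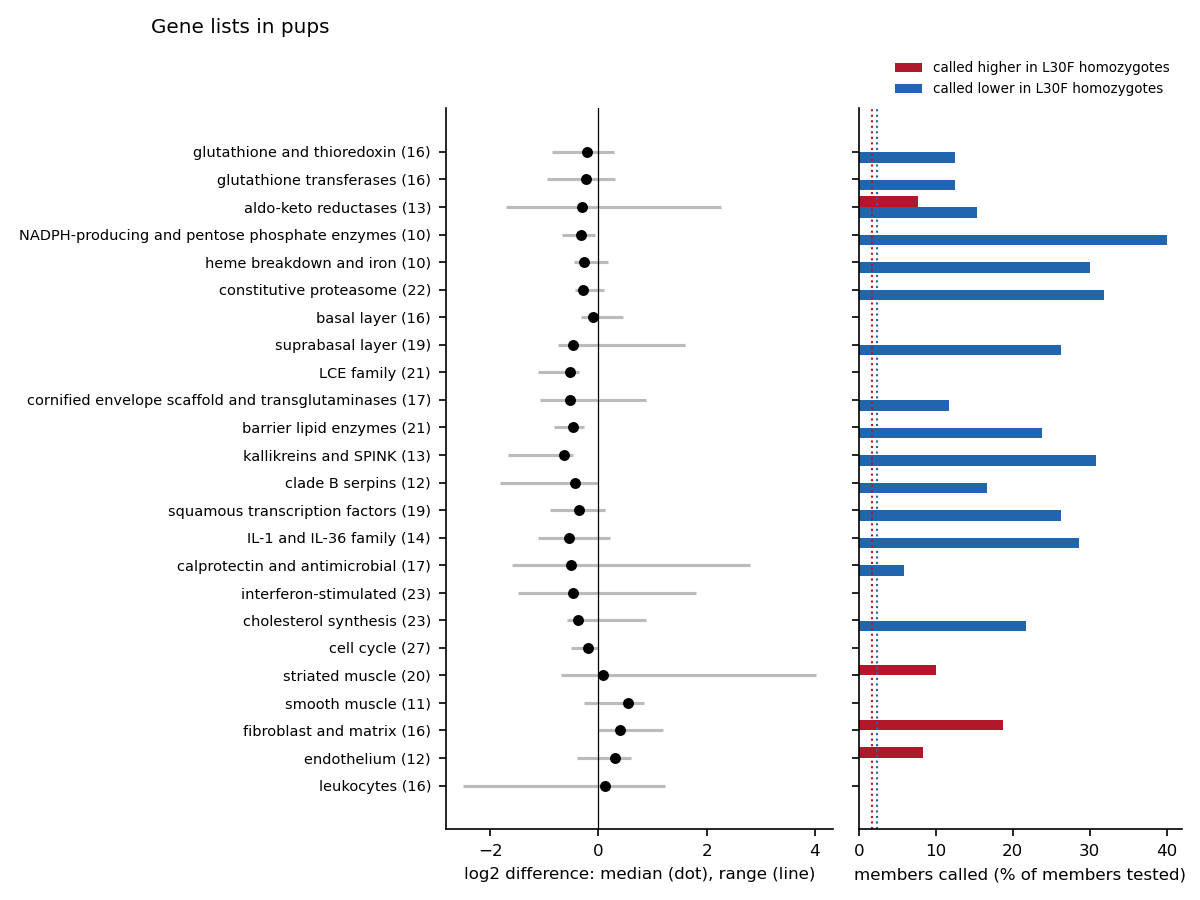
Log2 difference of L30F homozygotes minus KEAP1-deficient pups in 24 gene lists (number of genes tested in brackets): the median (dot) and range (line) on the left, and the percent of members called higher (red) or lower (blue) on the right, with dotted lines at the 1.76% and 2.4% of all genes called higher and lower. Medians of the epithelial lists lie below 0 and those of smooth muscle, fibroblast and endothelium above it.

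4 genes of the IL-1 family were lower in L30F homozygotes. Il1rn, the secreted antagonist of IL-1, had 1126, 1329 and 1288 normalised reads in L30F homozygotes, against 2228, 3053 and 2857 in KEAP1-deficient pups and 702, 522 and 510.0 in wild type, a log2 difference of -1.11 (SE 0.15, limma adjusted p = 0.016). Il1a, an IL-1 cytokine, had 892, 1156 and 791 in L30F homozygotes, against 1397, 1372 and 1585 in KEAP1-deficient pups and 119, 114 and 108 in wild type (log2 -0.63, SE 0.13, limma adjusted p = 0.036). The mutant groups did not overlap for either. Il33, an alarmin, and Il1r2, the IL-1 decoy receptor, differed by -0.56 and -0.62 (limma adjusted p = 0.031 and 0.045), so that both activating and restraining members were among the 4 of 14 called lower. None of the 14 was called higher and the median was -0.55, while over all genes 2.4% were called lower. Fits without 1 library kept these 4 calls 0 to 8 times of 9, and at least 1 ended without any 1 of the 9 libraries (limma adjusted p = 0.053 to 0.12).

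Other innate genes among the largest decreases were Casp4, an inflammatory caspase, with 64.8, 71.0 and 112 normalised reads in L30F homozygotes, against 167, 181 and 176 in KEAP1-deficient pups and 45.4, 42.7 and 45.4 in wild type, and Mlkl, the executor of necroptosis, with 79.7, 93.6 and 113 in L30F homozygotes, against 149, 271 and 199.8 in KEAP1-deficient pups and 35.6, 31.1 and 35.9 in wild type. Their log2 differences were -1.11 and -1.08 (limma adjusted p = 0.029 and 0.036). Nod2, a sensor of bacterial peptidoglycan added after values were seen, Wfdc12, a protease inhibitor, and Skint1, a thymic and skin butyrophilin-like gene, differed by -0.95, -1.60 and -1.83 (limma adjusted p = 0.034, 0.02 and 0.019). These 5 calls held in 3 to 8 of the 9 fits without 1 library, and leaving out any 1 library except homozygote library 3 or wild-type library 1 ended at least 1 of them (limma adjusted p = 0.055 to 0.11). None of 23 interferon-stimulated genes (4 at an unadjusted p under 0.05, 0 by limma-voom), 15 other cytokines (1 at an unadjusted p under 0.05, 0 by limma-voom) and 16 leukocyte markers (4 at an unadjusted p under 0.05, 0 by limma-voom) was called by limma. Leukocyte markers summed to 3173 to 3341 normalised reads in L30F homozygotes and to 2218 to 3555 in KEAP1-deficient pups, which overlapped.

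Members of some biosynthetic groups were also lower, in counts to be read beside the 2.4% of all genes called lower. Cholesterol synthesis and uptake had 5 of 23 genes called lower and none higher (median -0.38), among them Fdps, which makes farnesyl diphosphate, and Mvk, the mevalonate kinase, at -0.49 and -0.38 (limma adjusted p = 0.038 and 0.042). In the ATF4 response and serine synthesis 3 of 15 were called lower, including Phgdh and Psat1, enzymes that make serine, at -0.55 and -0.50 (limma adjusted p = 0.04 and 0.046). Leaving out any 1 library except wild-type library 1 ended at least 1 of these 4 calls, which held in 1 to 2 of the 9 such fits (limma adjusted p = 0.05 to 0.14 where they ended). Of 12 genes of the unfolded protein response 3 were called lower. One was Hyou1, a chaperone of the endoplasmic reticulum, with 2862, 2839 and 2817 normalised reads in L30F homozygotes, against 3964, 3912 and 3809 in KEAP1-deficient pups and 1819.6, 1719 and 1781 in wild type (log2 -0.46, SE 0.06, limma adjusted p = 0.0088), kept in all 9 fits.

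The remaining genes called lower in all 9 fits and detected in both mutants had varied roles and were chosen after their values were seen. Rps6ka6, a ribosomal S6 kinase, had 249, 238 and 262 normalised reads in L30F homozygotes, against 515, 524 and 462 in KEAP1-deficient pups and 102, 88.9 and 87.3 in wild type (limma adjusted p = 0.0076). Tuba4a, an alpha tubulin, and Rab5if, which encodes a partner of the endosomal protein RAB5, differed by -0.78 and -0.51 (limma adjusted p = 0.0097 for both). Rps7, a ribosomal protein with many processed copies in the genome, so that its reads are uncertain, was at 3222, 3188 and 3200.3 in L30F homozygotes, against 4683, 5631 and 5154 in KEAP1-deficient pups and 3252, 3826 and 3825 in wild type (log2 -0.68, limma adjusted p = 0.01). For Rps7 the homozygotes were below the wild-type libraries and the KEAP1-deficient pups above them, whereas for the other 3 both mutants were above wild type. Other large decreases were in genes of few reads. Slc9a3, a sodium-proton exchanger, had 144, 119 and 117 in L30F homozygotes, against 288, 261 and 348 in KEAP1-deficient pups and 2.67, 3.56 and 4.28 in wild type (log2 -1.23, limma adjusted p = 0.026). Atp5g2, a subunit of ATP synthase, Kcnk2, a potassium channel, and Egr3, an immediate early transcription factor, differed by -1.51, -1.08 and -1.16 (limma adjusted p = 0.031, 0.034 and 0.034). In the fits without 1 library these 4 calls held 2 to 5 times of 9, at least 1 ending without any 1 library except homozygote library 3 or wild-type library 1 (limma adjusted p = 0.05 to 0.11).

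A smaller set of genes stood above both KEAP1-deficient and wild-type levels in the L30F homozygotes. Mboat2, an acyltransferase that remodels membrane phospholipids, had 1953, 1904 and 1715 normalised reads in L30F homozygotes, against 515, 683 and 666 in KEAP1-deficient pups and 492, 455 and 486 in wild type, a log2 difference of 1.59 (SE 0.11, limma adjusted p = 0.00038). Ednrb, the endothelin B receptor, had 1995, 2481 and 2808 in L30F homozygotes, against 1019, 1076 and 1033 in KEAP1-deficient pups and 1077, 1442 and 1308 in wild type (log2 1.20, SE 0.13, limma adjusted p = 0.0081). Strbp, which encodes an RNA-binding protein, had 1933, 1745 and 1817 in L30F homozygotes, against 1098, 1068 and 1144 in KEAP1-deficient pups and 1003, 1076 and 1102 in wild type (log2 0.73, SE 0.07, limma adjusted p = 0.0043). In all 3 genes every homozygote library was above every other pup library, and all 3 calls were kept in all 9 fits. Ednrb and Strbp lay outside the naming rule.

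Gm42566, a gene model with no stated role, had the same order and was also kept in all 9 fits, with 216, 299 and 325 normalised reads in L30F homozygotes, against 113, 123 and 112 in KEAP1-deficient pups and 96.1, 108 and 95.0 in wild type (log2 1.24, limma adjusted p = 0.01). Nptx2, a pentraxin of synapses, had 227, 151 and 134 in L30F homozygotes, against 30.9, 55.3 and 31.3 in KEAP1-deficient pups and 123, 94.3 and 108 in wild type (log2 2.11, SE 0.27, limma adjusted p = 0.01). Its KEAP1-deficient libraries were the lowest of the 9. Tmem37, a calcium channel gamma-like subunit, had 84.7, 125 and 86.0 in L30F homozygotes, against 25.6, 29.3 and 31.3 in KEAP1-deficient pups and 61.4, 52.5 and 65.0 in wild type (log2 1.72, limma adjusted p = 0.0088). Both were called in all 9 fits. Fos, an immediate early transcription factor, had 1006, 735 and 673 in L30F homozygotes, against 343, 393 and 475 in KEAP1-deficient pups and 346, 390.4 and 348 in wild type (log2 0.98, SE 0.16, limma adjusted p = 0.024), and Dusp1, a MAP kinase phosphatase, differed by 0.60 (limma adjusted p = 0.034). With Egr3 lower, the 13 immediate early genes had 2 called higher and 1 lower, against 1.76% and 2.4% of all genes. At least 1 of the 2 calls ended without any 1 library except homozygote library 3 or wild-type library 1 (limma adjusted p = 0.052 to 0.1), and each held in 2 to 6 of the 9 fits.

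Several matrix genes were higher in the L30F homozygotes than in the KEAP1-deficient pups. Mfap5, a protein of elastic microfibrils, had 1837, 1587 and 1707 normalised reads in L30F homozygotes, against 926, 669 and 936 in KEAP1-deficient pups and 2261, 2493 and 2484 in wild type (log2 1.03, SE 0.12, limma adjusted p = 0.0088). Mmp14, a membrane-bound matrix protease, had 2734, 2952 and 2754 in L30F homozygotes, against 1806, 1989 and 2002 in KEAP1-deficient pups and 3932, 3787 and 3822 in wild type (log2 0.54, SE 0.07, limma adjusted p = 0.0088). The 3 groups were apart for both genes, with the homozygotes between KEAP1-deficient pups and wild type. Col8a1, a short-chain collagen, and Sulf1 and Sulf2, which remove sulfate from heparan sulfate, differed by 0.96, 0.83 and 0.89 (limma adjusted p = 0.0088, 0.0088 and 0.016). All 5 calls were kept in all 9 fits. The 3 last named were chosen after their values were seen.

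Other matrix genes had larger differences and wider spread. Cthrc1, a secreted collagen triple helix repeat protein, had 216, 191 and 107 normalised reads in L30F homozygotes, against 46.9, 16.9 and 46.4 in KEAP1-deficient pups and 308, 357 and 346 in wild type (log2 2.26, SE 0.39, limma adjusted p = 0.029). Ltbp2, a latent TGF-beta binding protein, Eln, which encodes elastin, and Mfap4, a microfibril protein, differed by 1.57, 0.89 and 0.83 (limma adjusted p = 0.038, 0.043 and 0.035). Fits without 1 library kept these 4 calls 1 to 5 times of 9, and at least 1 ended without any 1 library except homozygote library 3 (limma adjusted p = 0.051 to 0.12). Of the 16 fibroblast and matrix markers 3 were called higher and none lower, against 1.76% of all genes called higher, and the median was 0.39. The 16 summed to 240423 to 332008 normalised reads in L30F homozygotes and 152019 to 266081 in KEAP1-deficient pups, which overlapped, and to 619558 to 662063 in wild type, with none at 0. The part of cell make-up in these differences was not tested.

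Imprinted genes, which are expressed from 1 parental copy and many of which are high in fetal and newborn tissue, were higher in the L30F homozygotes in 8 cases. The list of 28 was written after their values were seen, so its count supports nothing by itself: these 8 were called higher and none lower, 26 lay above 0, and the median was 0.60. Igf2, a fetal growth factor, had 32828, 32094 and 27156 normalised reads in L30F homozygotes, against 18602, 17137 and 22990.5 in KEAP1-deficient pups and 52313, 50869 and 50742 in wild type (log2 0.65, SE 0.11, limma adjusted p = 0.026). Dlk1, a ligand-like membrane protein, had 6336, 6799 and 5102 in L30F homozygotes, against 2106, 1719 and 3098 in KEAP1-deficient pups and 8225, 7499 and 7774 in wild type (log2 1.43, SE 0.20, limma adjusted p = 0.017). Cdkn1c, a cell cycle inhibitor, had 2373, 3137 and 2067 in L30F homozygotes, against 1324, 991 and 1467 in KEAP1-deficient pups and 4521, 4817 and 4864 in wild type (log2 1.00, SE 0.17, limma adjusted p = 0.028). All 3 were highest in wild type, and the mutant groups did not overlap.

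Peg10, Nnat, Grb10 and Sgce differed by 1.28, 1.57, 0.63 and 0.48 (limma adjusted p = 0.048, 0.034, 0.038 and 0.046). Igf2os, the antisense transcript of Igf2, had 289.9, 505 and 134 normalised reads in L30F homozygotes, against 37.3, 59.8 and 77.8 in KEAP1-deficient pups and 484, 405 and 388 in wild type (log2 2.25, limma adjusted p = 0.038). Libraries were made with a directional kit, but how strand was used in counting is not given in the sources used here, so its reads cannot be told from those of Igf2. These 8 calls held in 0 to 7 of the 9 fits without 1 library, and leaving out any 1 of the 9 libraries ended at least 1 of them (limma adjusted p = 0.05 to 0.14).

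Muscle genes differed in both directions. Myog, the transcription factor of differentiating myoblasts, had 785, 1178 and 807 normalised reads in L30F homozygotes, against 439, 348 and 506 in KEAP1-deficient pups and 1586, 1584 and 1505 in wild type (log2 1.09, SE 0.17, limma adjusted p = 0.022). Mymk, needed for myoblast fusion, and Chrng, the fetal acetylcholine receptor subunit, both added after values were seen, differed by 1.32 and 1.21 (limma adjusted p = 0.034 and 0.043), and Tnnt1, the slow skeletal troponin T, by 1.19 (limma adjusted p = 0.047). Myl3, a slow and cardiac myosin light chain, went the other way with 492, 265 and 858 in L30F homozygotes, against 2515, 2109 and 2147 in KEAP1-deficient pups and 1042, 1798 and 2014 in wild type (log2 -2.22, SE 0.43, limma adjusted p = 0.039). Fhl3 and Agbl1, a LIM-domain protein of muscle and a carboxypeptidase, were also lower, at -1.11 and -1.05 (limma adjusted p = 0.029 and 0.039). Leaving out any 1 library except homozygote library 3 ended at least 1 of these 7 calls, which held in 1 to 7 of the 9 such fits (limma adjusted p = 0.051 to 0.14 where they ended).

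Of 20 striated muscle markers 2 were called higher and none lower, against 1.76% and 2.4% of all genes, with a median of 0.08. They summed to 656709 to 875867 normalised reads in L30F homozygotes and to 850550 to 1022691 in KEAP1-deficient pups, which overlapped. None of the 11 smooth muscle markers was called by limma (0 at an unadjusted p under 0.05, 0 by limma-voom), with a median of 0.55. Hbb-bs, an adult globin chain, had 33288, 8012 and 32210.0 in L30F homozygotes, against 3083, 1844 and 2855 in KEAP1-deficient pups and 19749, 37147 and 16382 in wild type (log2 3.02, SE 0.61, limma adjusted p = 0.048). Its call was kept only without homozygote library 2 and ended without any of the other libraries (limma adjusted p = 0.064 to 0.15). The red blood cell list summed to 24855 to 104993 normalised reads in L30F homozygotes and 5843 to 10781 in KEAP1-deficient pups, which did not overlap, and all 8 members lay above 0 with 1 called. The part of blood left in the tissue in these values was not tested.

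The other large increases were in genes of neurons or of unclear role in this tissue. Bex1, a brain-expressed adaptor, had 150.4, 198 and 117 normalised reads in L30F homozygotes, against 50.1, 44.0 and 51.8 in KEAP1-deficient pups and 201, 181 and 163 in wild type (log2 1.62, SE 0.19, limma adjusted p = 0.0088). Ccdc141, a coiled-coil protein, had 674, 685 and 563 in L30F homozygotes, against 287, 257 and 348 in KEAP1-deficient pups and 949, 1014 and 997 in wild type (log2 1.11, SE 0.12, limma adjusted p = 0.0076). In both, KEAP1-deficient libraries were the lowest of the 9, as they were for the gene model Gm5784 with a log2 difference of 1.02 (limma adjusted p = 0.0076), and all 3 calls were kept in all 9 fits. Snap91, a clathrin adaptor of synapses, Scg2, a granin of secretory granules, St6gal2, a sialyltransferase, Tceal7, Kcne1l, a potassium channel subunit, and Arhgap6, a GTPase activator, differed by 1.78, 1.49, 1.49, 1.89, 1.75 and 1.65 (limma adjusted p = 0.02, 0.042, 0.038, 0.041, 0.05 and 0.029). None of 11 nerve and glia markers was called by limma (2 at an unadjusted p under 0.05, 0 by limma-voom), with a median of 0.19. In the fits without 1 library these 6 calls held 1 to 6 times of 9, at least 1 ending without any 1 of the 9 libraries (limma adjusted p = 0.05 to 0.12).

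A few transcripts were listed in 1 mutant and at 0 in the other, and were chosen after their values were seen. Requiring 0 in every library of one group and at least 10 normalised reads in every library of the other gave 7 genes, 4 in L30F homozygotes and 3 in KEAP1-deficient pups. Rprl3, a copy of the RNase P RNA gene, was at 0 in all L30F homozygotes, against 828, 509 and 611 in KEAP1-deficient pups and 0 in all wild-type libraries, at least 648-fold lower in the homozygotes when 3 reads over their 3 libraries are taken as the floor (limma adjusted p = 3.1e-06). Gm3375 was likewise at 0, against 310.4, 346 and 329 in KEAP1-deficient pups, at least 328-fold lower (limma adjusted p = 0.00021), with 1 wild-type library at 2.67. In the other direction Gm4864 and Gm7993 were at 51.8, 38.4 and 33.8 and at 34.9, 30.6 and 27.6 in L30F homozygotes and at 0 in every KEAP1-deficient and wild-type library, at least 37.9-fold and 28.4-fold higher (limma adjusted p = 0.0043 and 0.0076). Those 4 calls were kept in all 9 fits. Rprl3 belongs to a family of near-identical copies and the other 3 are gene models, so how reads were assigned among copies, and a difference in strain background, were not tested.

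The same contrast could be read in adults, in libraries that share no sample with the pups. These were 4 labelled NRF2L30F/L30F::K5CreERT2 and 4 labelled KEAP1fl/fl::K5CreERT2, at 6 to 9 weeks of age and 1 week after tamoxifen at 100 µg per g body weight. Age, the inducible Cre and tamoxifen differ from the pups together and cannot be told apart. The adult libraries held 10.9 to 11.6 M reads in L30F homozygotes and 22.5 to 31.3 M in KEAP1-deficient mice. There 5248 of 19857 genes were called (26.4%), 2568 higher (12.9%) and 2680 lower (13.5%) in L30F homozygotes. Of the 853 pup calls tested in adults 276 were called there (32.4%), and these are 5.46% of the 5059 adult calls tested in pups. The shared count rested on the pup calls: it was 74 of 166 and 23 of 58 without pup homozygote library 1 or 2, 63 of 170, 19 of 44 and 119 of 375 without pup KEAP1-deficient library 1, 2 or 3, and 48 of 116 and 85 of 201 without pup wild-type library 2 or 3. Of 358 genes higher in pups, 46 were called higher in adults and 44 lower. Of 495 lower in pups, 86 were called higher in adults and 100 lower. The contrast differed between adults and pups for 3516 of 19031 genes (18.5%, difference of the limma estimates, adjusted p under 0.05).

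Among the genes described above, Akr1b8, Klk10 and Il1rn were lower in L30F homozygotes at both ages, and more so in adults. Akr1b8 averaged 1337 ± 155 normalised reads in adult L30F homozygotes and 4507 ± 853 in adult KEAP1-deficient mice (SD, n = 4 each), a log2 difference of -1.74 (limma adjusted p = 2.4e-05), and differed from the pups by -1.02 (adjusted p = 0.0029). Klk10 and Il1rn had adult log2 differences of -1.87 and -2.19 (limma adjusted p = 0.00026 and 0.00012), and differed from the pups by -1.16 and -1.08 (adjusted p = 0.011 and 0.03). Klk6 and Sqor were also lower in adults, at -2.40 and -0.50 (limma adjusted p = 2e-05 and 0.0048), without a detected difference between the ages (adjusted p = 0.19 and 0.82). Other detoxifying genes went both ways in adults. Gstp2, at -0.52 in pups, was called higher in adults at 0.59 (limma adjusted p = 0.011). Ptgr1, at -0.50 in pups, was at 0.41 and not called (limma adjusted p = 0.096). In adults 5 of 16 glutathione transferases were called higher and 1 lower, as were 8 and 3 of 18 quinone, carbonyl, aldehyde and epoxide enzymes. Of 16 glutathione and thioredoxin genes 1 was called higher and 5 lower, against 12.9% and 13.5% of all genes.

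Some suprabasal and muscle genes had opposite signs at the 2 ages, and others did not. Of 19 suprabasal genes none was called higher and 5 lower in pups, and 10 were called higher and 2 lower in adults. Among other keratin and envelope genes, Krt16 and Tgm1 were lower in L30F homozygotes at both ages, with adult log2 differences of -2.14 and -0.98 (limma adjusted p = 0.0017 and 0.0067), and the suprabasal Lypd3 was at -0.33 in adults and not called (limma adjusted p = 0.094, and 0.044 without adult KEAP1-deficient library 2). Krt13 averaged 322307 ± 31988 normalised reads in adult L30F homozygotes and 100439 ± 16241 in adult KEAP1-deficient mice (SD, n = 4 each), which was 1.69 on the log2 scale (limma adjusted p = 9.2e-07) where pups had -0.48, a difference of 2.17 (adjusted p = 7.1e-09). Ly6d and Muc15, a membrane mucin, had adult values of 0.68 and 0.99 (limma adjusted p = 0.00034 and 0.00049) where pups had -0.46 and -0.66. Of the 21 LCE genes, none of them called in pups, 14 were called higher and none lower in adults (median 1.07). Myl3 and Fhl3 were higher in adult L30F homozygotes, at 1.45 and 0.79 (limma adjusted p = 1.3e-05 and 0.00019), whereas Tnnt1 was lower at -1.67 (limma adjusted p = 0.034), a call that ended without adult homozygote library 1, 3 or 4 or any 1 adult KEAP1-deficient library (0.051 to 0.091).

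Of the genes higher in L30F pups, Akr1c18, Ednrb, Mmp14 and Cthrc1 were lower in adult L30F homozygotes, at -1.90, -0.82, -0.80 and -1.69 (limma adjusted p = 0.00063, 0.013, 0.007 and 0.0045). Akr1c18 averaged 436 ± 161 normalised reads in adult L30F homozygotes and 1568 ± 307 in adult KEAP1-deficient mice (SD, n = 4 each). Mboat2 was not called in adults (log2 1.41, SE 0.67, limma adjusted p = 0.14), where its level was 115, 133, 104 and 1316 normalised reads in L30F homozygotes, against 93.0, 98.2, 67.6 and 65.5 in KEAP1-deficient mice. Every adult homozygote library was above every adult KEAP1-deficient one, and library 4 was far above the other 3.

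**Figure D5:**
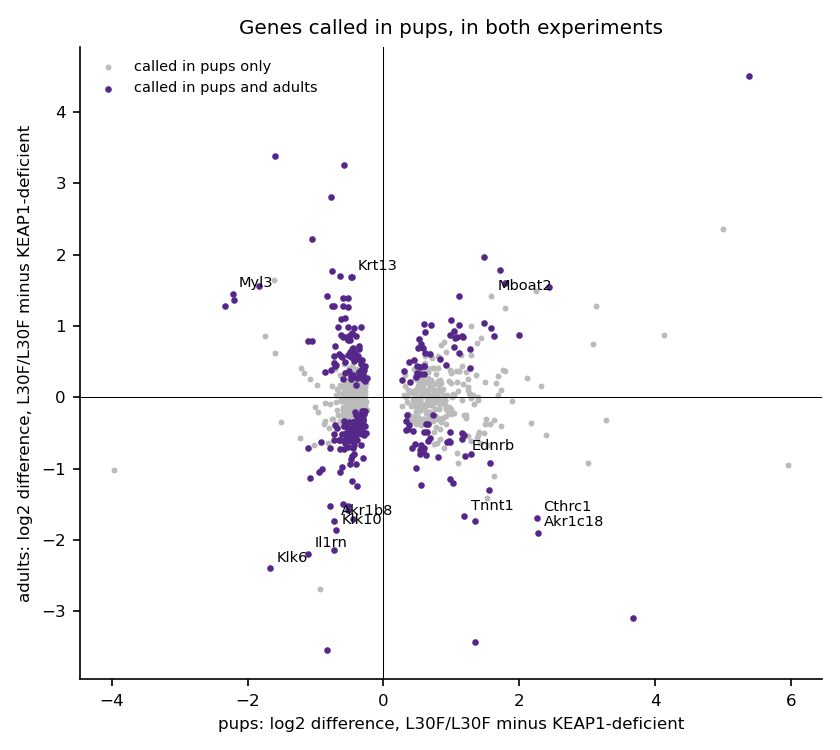
Log2 differences of L30F homozygotes minus KEAP1-deficient mice in pups (horizontal axis) and adults (vertical axis) for the 853 genes called in pups and tested in adults, with the 276 called in adults too in purple. Called genes lie in all 4 quadrants, with Akr1b8, Klk6, Klk10 and Il1rn lower at both ages and Akr1c18, Cthrc1 and Tnnt1 higher in pups and lower in adults.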

How the data were processed

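Esophagus RNA of 25 libraries was sequenced from directional libraries, per the labels' protocols, and 9 pup libraries (3 each of L30F homozygotes, KEAP1-deficient pups and wild type) and 16 adult ones (4 each of 4 groups) entered 2 separate tables. The authors quantified reads with Salmon against GRCm39, per the submitters' processing notes, with versions not given in the sources used here. They deposited log2 values that equal log2(n + 4), n being reads over a library factor. Subtracting 4 and undoing the factor gave whole reads for 100% of values up to 1000 reads (tolerance 0.1 reads), at 18.8 to 19.7 M reads per pup library.

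Values were floored at 0, genes were kept where the value was at least 1 in at least 3 pup (4 adult) libraries, and values were fitted as log2(n + 1) by limma 3.58.1 (R 4.3.3) with trend and robust variance, all groups sharing 1 spread and no replicate block, with Benjamini-Hochberg adjustment over 21007 pup and 19857 adult genes. The adult minus pup difference used both standard errors with Welch-Satterthwaite degrees of freedom. Scaling relative to most genes cannot show a shift common to all. Low counts limit precision.

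Genes named were Nfe2l2, Keap1, Nqo1 and Slc7a11, the 15 largest called differences each way with at least 100 normalised reads, and up to 4 genes of smallest p in each of 50 lists. Others are said to be added, and a few that the rule names are not reported here. The genes and lists were chosen with earlier results of these data known. Tried instead were offsets of 4 and 0.1, no filter or one of 10, TMM scaling, limma-voom, no robust variance, only the 2 groups, a replicate block, a 2-fold threshold and leaving out each library. The fits were checked on simulated data with known changes. Those data gave KEAP1-deficient and wild-type libraries the same mean for each gene, unlike the real data. They therefore do not test how the wild-type libraries affect the shared spread.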

Additional observations from a re-analysis of the deposited data

Results flagged for a closer look

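In 14 of 19 genes picked for comparison at both ages, the L30F homozygote minus KEAP1-deficient contrast differed between adults and pups. The test was of the difference itself, with p-values adjusted over 19031 genes. These 19 were picked with results known, and Gstp2 and Ptgr1 were not among them, so the count supports nothing by itself. Over all 19031 genes the share was 18.5%. The log2 difference was lower in adults than in pups for 9 genes, with an adult minus pup value for Akr1c18 of -4.17 (adjusted p = 0.00019), Cthrc1 of -3.95 (adjusted p = 2.8e-05), Tnnt1 of -2.86 (adjusted p = 0.0021), Ednrb of -2.03 (adjusted p = 8.6e-06), Krt16 of -1.40 (adjusted p = 0.031), Mmp14 of -1.34 (adjusted p = 0.00016), Klk10 of -1.16 (adjusted p = 0.011), Il1rn of -1.08 (adjusted p = 0.03) and Akr1b8 of -1.02 (adjusted p = 0.0029). It was higher in adults than in pups for 5 genes, with a value for Myl3 of 3.67 (adjusted p = 0.00045), Krt13 of 2.17 (adjusted p = 7.1e-09), Fhl3 of 1.89 (adjusted p = 2.7e-05), Muc15 of 1.65 (adjusted p = 5.1e-06) and Ly6d of 1.14 (adjusted p = 2.2e-06). Striated muscle markers also moved in adults, with 15 of 20 called higher and 1 lower in L30F homozygotes, and their part in the values of Myl3, Fhl3 and Tnnt1 was not tested.

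Among 38 adult groups of 4 libraries checked for these genes, 2 had a library far from the others by Dixon's criterion, the gap to the nearest library over the range of the group, and chance marks about 1 group in 20. Mboat2 was at 1316 normalised reads in adult L30F homozygote library 4, against 104 to 133 in the other 3. Muc15 was at 108 in adult KEAP1-deficient library 2, against 161 to 164 in the other 3.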

How the results depend on the processing

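The number of pup calls was the least stable result. Against 875 calls in pups, 370 higher and 505 lower, there were 185 with only the 2 groups compared (49 higher, 136 lower), 222 with a replicate block (82 and 140), 148 with a 2-fold threshold (118 and 30), and 108 with limma-voom on the 2 groups only (26 and 82), an alternative chosen after seeing the data. Leaving out 1 library gave 47 to 924 calls, 25 to 502 higher and 22 to 585 lower. The other alternatives, which were offsets of 4 and 0.1, no filter, a minimum of 10, TMM scaling, limma-voom and no robust variance, gave 778 to 993. Members of the 50 gene lists, counted once per list and without the 8 imprinted genes called higher (1 with only the 2 groups), were 14 higher and 75 lower, and became 2 and 44 with only the 2 groups, 2 and 32 with the replicate block, 5 and 4 with the 2-fold threshold, 2 and 30 with limma-voom on the 2 groups, and 2 to 18 and 10 to 95 without 1 library. A 2-fold threshold, which counts fewer genes by construction, left 1713 adult calls (771 higher, 942 lower) and 1517 genes that differed between adults and pups. Without 1 library adults gave 4097 to 5216 calls, 2056 to 2531 higher and 2037 to 2685 lower, and the difference between ages 2884 to 3910. Of the pup calls tested in adults 276 of 853 (32.4%) were called there, against 87 of 179 (48.6%) with only the 2 groups, 80 of 216 with the replicate block, 26 of 132 (19.7%) with the 2-fold threshold and 25.4% to 44.6% without 1 library. Fits without a group or a library hold fewer samples by construction, and for the other lower numbers the cause was not tested. None of the 115 pup genes named as called changed direction under any alternative, which supports nothing by itself. Their mutant groups did not overlap, so a changed offset or filter, a left-out library or the 2 groups alone could not reverse a sign. An offset of 4 and a minimum of 10 kept all 115 calls, whereas an offset of 0.1, no filter and no robust variance kept 114 each. TMM scaling kept 107, limma-voom 106, the replicate block 63, the 2 groups alone 52 and the fit without KEAP1-deficient library 2 kept 35. Whether libraries of the same replicate number belong together was not settled. Across genes, deviations of same-numbered mutant libraries correlated only weakly, at 0.18, 0.20 and -0.07 in pups and at 0.07, 0.01, 0.18 and 0.15 in adults. Yet 4 of 6 pup and 6 of 8 adult libraries correlated best with their own number, so the fit with a replicate block cannot be set aside. In adults the block gave 5096 calls, and 3611 genes differed between ages. Depth was even across pup libraries (18.8 to 19.7 M reads), but adult L30F homozygotes had 10.9 to 11.6 M reads and adult KEAP1-deficient mice 22.5 to 31.3 M, which limits what can be seen of low genes there.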
